A study of Homo sapiens with 3 samples.

Results

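The genes described here encode enzymes that modify drugs, steroids, retinoids and other small molecules: cytochromes P450 of families CYP1 to CYP4, UDP-glycosyltransferases (UGT), sulfotransferases (SULT), aldehyde dehydrogenases (ALDH), glutathione S-transferases (GST) and aldo-keto reductases of family AKR1. They were taken by gene symbol alone, from transcript clusters annotated with a single symbol that matched these families, and where a gene had several clusters the brightest by mean was taken. This gave 55 genes of the 14410 with a symbol of their own: 19 CYP, 3 UGT, 7 SULT, 16 ALDH, 7 GST and 3 AKR1 genes. A further 40 clusters carried several symbols, at least 1 of them of these families, and were not named or analysed here, so the set leaves out closely related genes whose probes cannot be assigned to one of them.

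Cytochromes P450 insert an oxygen atom into their substrate with electrons passed on by a reductase, and ALDH and AKR1 enzymes oxidise or reduce carbonyl groups with nicotinamide cofactors. UGT, SULT and GST enzymes then attach a sugar such as glucuronic acid, sulfate or glutathione, which makes the product more soluble and easier to export. Liver and gut carry much of this chemistry for foreign compounds, while many single members act on the body's own substrates, such as estrogens, prostaglandins, vitamin D and retinaldehyde.

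RNA of 3 cell lines was measured on 1 exon array each. HT-29, from a colon adenocarcinoma, had received IFN-γ at 200 U/ml for 24 h in McCoy's medium with 10% FBS. MCF10A, a mammary epithelial line, was kept without IFN-γ in a DMEM and F12 mixture that held 5% horse serum together with insulin at 10 µg/ml, EGF at 20 ng/ml, cholera toxin at 100 ng/ml and hydrocortisone, a glucocorticoid, at 500 ng/ml. MDA-MB-436, from a breast adenocarcinoma, was grown without IFN-γ in L-15 medium with 10% FBS. The effects of line, medium and cytokine cannot be told apart in these arrays, and no HT-29 array without the cytokine entered the analysis. No replicate spread exists with 1 array per line, so no test was made and every difference describes these 3 arrays only. A lower intensity can mean fewer cells with the transcript or less transcript per cell, and these cannot be told apart.

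Background was set at an intensity of 29.9, the 95th percentile over 228 olfactory receptor genes, whose highest value was 101. Array medians lay between 75.1 and 81 over all clusters. A gene was counted as past 4-fold when its log2 difference between 2 arrays was at least 2 and its higher intensity was above background; counts and lists of such genes use the measured intensities. Where the lower intensity was under background the fold was computed against 29.9 and is written as "at least". Intestinal markers fixed for the analysis were above background for 8 of 9 genes in HT-29, against 2 for MCF10A and 3 for MDA-MB-436. Basal mammary markers were above it for 5 of 5 in MCF10A, 3 in HT-29 and 1 in MDA-MB-436, and mesenchymal markers for 10 of 10 in MDA-MB-436, 8 in MCF10A and 3 in HT-29. Of 9 hepatocyte markers, 2 were above background in HT-29 and 1 in each mammary line, and albumin (ALB) was at 6.82, 4.18 and 8.03 in HT-29, MCF10A and MDA-MB-436. APOH, a plasma apolipoprotein gene of this list, was at 210.5 in HT-29 against 4.29 in MCF10A and 2.46 in MDA-MB-436, higher in HT-29 by at least 7.04-fold.

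A minority of the enzyme genes differed widely between the lines, while the median of the set lay close to that of all genes. Of the 55 genes, 17 were past 4-fold in at least 1 of the 3 comparisons, 30.9% against 13.4% of all genes. MDA-MB-436 had 6 genes higher and 4 lower than MCF10A, 18.2% of the set against 5.66% of all genes (3.65% higher and 2.01% lower). HT-29 with IFN-γ had 5 higher and 3 lower than MCF10A, 14.5% against 7.84% (4.34% higher and 3.5% lower). Against MDA-MB-436, HT-29 had 7 higher and 7 lower, 25.5% against 8.9% (4.21% higher and 4.68% lower). Median log2 differences stayed close to those of all genes: 0.036 against 0.018 for MDA-MB-436 minus MCF10A, which quantile normalization turned to -0.11 (-0.06 for all genes) and median centring to -0.05 (-0.07), 0.13 against 0.11 for HT-29 minus MCF10A, which quantile normalization turned to -0.02 (-0.01), and 0.093 against 0.076 for HT-29 minus MDA-MB-436. These 3 comparisons share arrays, so they are not independent counts. Raising every value under background to the background left 6, 6 and 10 genes past 4-fold in place of 10, 8 and 14, against 3.83%, 6.18% and 6.75% of all genes.

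**Figure D1:**
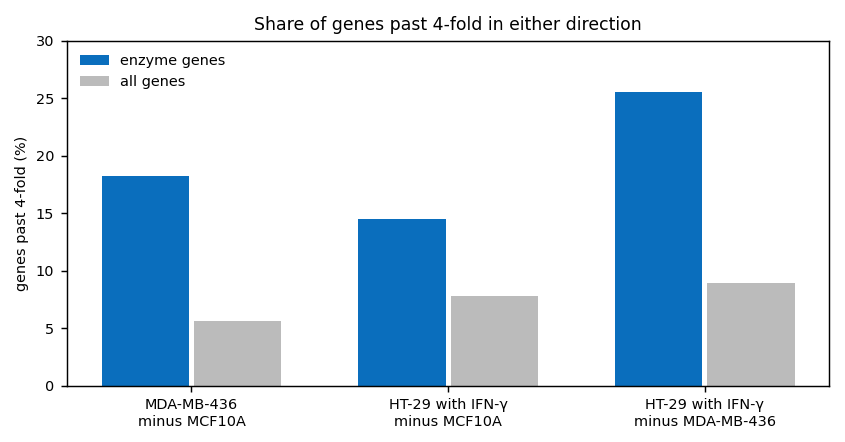
Share of genes, in percent, past 4-fold in either direction in each of the 3 comparisons, for the 55 enzyme genes (blue) and for all 14410 genes (grey). The enzyme bars stand at 18.2%, 14.5% and 25.5% beside 5.66%, 7.84% and 8.9%; there are no error bars because each line had 1 array.

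Above background lay 30 of the 55 genes in HT-29, against 27 for MCF10A and 28 for MDA-MB-436, which is 54.5%, 49.1% and 50.9%, against 66.6%, 65% and 68.8% of all genes. On all 3 arrays 21 were above it, and 18 were above it on none, with intensities from 3.17 to 29.8. These 18 were CYP1A1, CYP2E1, CYP2J2, CYP3A43, CYP4F8, CYP4F12, CYP4X1, UGT2A3, UGT3A1, UGT3A2, SULT1B1, SULT1C4, SULT2A1, ALDH1A2, ALDH1L1, ALDH8A1, GSTM5 and AKR1D1. No fold is given for them. Another 11 were above background somewhere but never above the highest olfactory receptor value, so whether their signal is transcript is less sure; CYP3A4, SULT1E1, SULT4A1 and ALDH3A1 are among them.

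**Figure D2:**
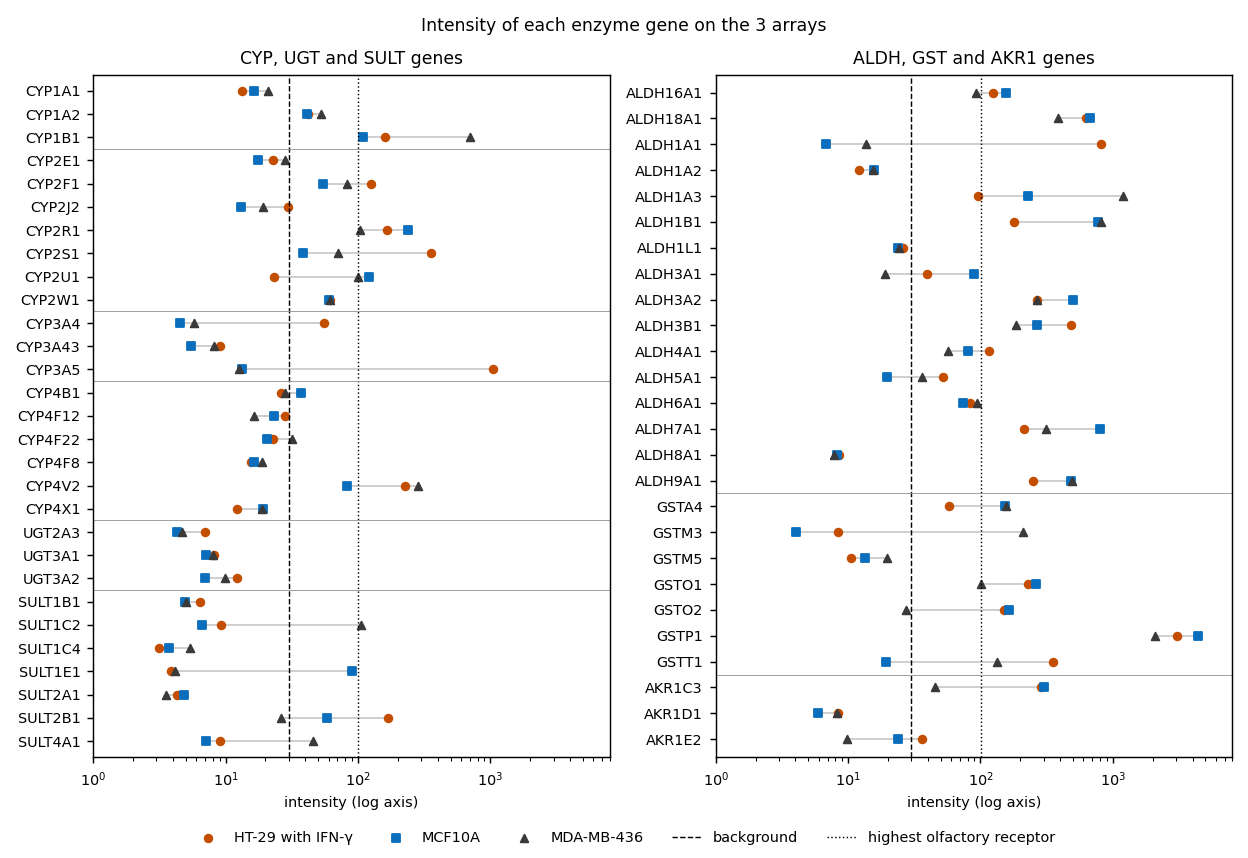
Intensity (log axis) of each of the 55 genes on the array of HT-29 with IFN-γ (circles), MCF10A (squares) and MDA-MB-436 (triangles), in blocks by family; the dashed line is the background of 29.9 and the dotted line the highest olfactory receptor value of 101. Most genes have their 3 points close together, while CYP3A5 and ALDH1A1 have 1 HT-29 point far to the right, at 1049 and 807, and both mammary lines under background.

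Among the P450 genes, CYP3A5 and, at a dim level, CYP3A4 were above background in HT-29 alone, and CYP1B1 was highest in MDA-MB-436. CYP3A5, which encodes a drug- and steroid-hydroxylating P450 of liver and gut, was at 1049 in HT-29 but 13.3 in MCF10A and 12.7 on the MDA-MB-436 array. Both mammary values were under background, so HT-29 was at least 35.1-fold higher than either. CYP3A4, the main drug-oxidising P450 of adult liver and intestine, was at 55.8 for HT-29, 4.52 for MCF10A and 5.75 for MDA-MB-436. HT-29 was highest here too, but at an intensity that some olfactory receptor genes also reach, and the fold was only at least 1.87. The measured log2 differences of CYP3A4 were 3.63 and 3.28, and raising values under background to the background took both to 0.90. CYP3A4 and CYP3A5 are near relatives, and how far their probes share signal was not tested. CYP3A43, the third measured gene of the subfamily, was under background in every line, at 9.07, 5.48 and 8.19 in HT-29, MCF10A and MDA-MB-436.

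CYP3A4 and CYP3A5 were the only genes of 1 subfamily that were both past 4-fold in the same direction in HT-29 against both mammary lines. Their upstream sequences are shown for that reason, as the 250 bases before the annotated start from RefSeq on GRCh38.p14, which is not the build hg19 named by the submitters. Capitals mark the longest stretch that the pair shares exactly, 41 bases; it begins 250 bases before the start of CYP3A4 (chr7:99784185-99784434, minus strand) and 194 bases before that of CYP3A5 (chr7:99679997-99680246, minus strand).
CYP3A4: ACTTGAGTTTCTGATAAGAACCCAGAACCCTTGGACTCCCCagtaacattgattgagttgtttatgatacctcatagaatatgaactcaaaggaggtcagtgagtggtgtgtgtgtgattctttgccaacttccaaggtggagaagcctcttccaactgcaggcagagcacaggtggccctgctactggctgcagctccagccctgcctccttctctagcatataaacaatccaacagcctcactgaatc
CYP3A5: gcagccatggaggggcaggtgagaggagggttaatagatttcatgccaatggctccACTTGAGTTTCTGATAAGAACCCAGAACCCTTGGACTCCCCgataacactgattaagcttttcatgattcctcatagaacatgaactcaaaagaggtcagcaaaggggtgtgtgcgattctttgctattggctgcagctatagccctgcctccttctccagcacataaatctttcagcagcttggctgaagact
A TATA box (TATAAA, searched on both strands) starts 29 bases before the start of CYP3A4 and is not in the CYP3A5 window; 8.26% of the 11522 promoters of genes measured here hold one in these 250 bases.

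CYP1B1, which hydroxylates estradiol and polycyclic hydrocarbons and is a target of the aryl hydrocarbon receptor, was at 159 for HT-29, 109 for MCF10A and 703 for MDA-MB-436. MDA-MB-436 was 6.48-fold above MCF10A and HT-29 was 4.42-fold below MDA-MB-436, with all 3 values above the highest olfactory receptor value. The other CYP1 genes did not share this order: CYP1A1, the textbook target of the same receptor, was at 13.3, 16.5 and 20.8 in HT-29, MCF10A and MDA-MB-436, under background throughout, and CYP1A2 at 42.3, 41.5 and 52.2. The receptor gene AHR itself was at 1194, 564 and 452 and its partner ARNT at 376, 683 and 1083, in the same order of lines. AHR was thus highest in HT-29 and ARNT in MDA-MB-436, neither past 4-fold in any comparison.

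CYP2S1, an extrahepatic P450 of epithelia, was at 355 for HT-29, 38.3 for MCF10A and 70.9 for MDA-MB-436. This was 9.29-fold and 5.01-fold higher in HT-29, with every value above background. CYP2U1, a fatty acid hydroxylase, went the other way, at 23.3 in HT-29 against 121 in MCF10A, at least 4.05-fold lower, and against 100.1 in MDA-MB-436, a bound of 3.35-fold. CYP2R1, the vitamin D 25-hydroxylase, was at 165, 241 and 103 in HT-29, MCF10A and MDA-MB-436, and its second cluster kept that order, at 129, 166 and 56.4. CYP2W1 was level at 61.7, 60.9 and 61. CYP2F1, which lies next to CYP2S1 among the genes measured, was at 124, 54.6 and 81.9. Of the 6 CYP4 genes, fatty acid and eicosanoid hydroxylases, none was past 4-fold; CYP4V2 was at 225, 83 and 284, and CYP4B1 and CYP4F22 were above background on 1 array each, at 36.9 in MCF10A and 31.7 in MDA-MB-436.

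The other P450 genes, outside families 1 to 4, had 18 measured of 22 listed, and few were above background: 4 for HT-29, 3 for MCF10A and 5 for MDA-MB-436. CYP27B1, which makes the active form of vitamin D, was at 221 in MCF10A, 47.2 in HT-29 and 34.6 in MDA-MB-436. It was therefore 4.69-fold lower in HT-29 and 6.4-fold lower in MDA-MB-436. The vitamin D receptor gene VDR was also highest in MCF10A, at 437 against 136 in HT-29 and 128 in MDA-MB-436, a difference short of 4-fold, and CYP24A1, which inactivates vitamin D, was under background in all lines at 21.6, 11.2 and 18 in HT-29, MCF10A and MDA-MB-436. TBXAS1, thromboxane synthase, was at 118 in HT-29 but 21.6 in MCF10A, at least 3.94-fold higher.

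The ALDH family held the most genes, 16, of which 13 were above background on at least 1 array (81.2%, against 74.3% of all genes) and 4 were past 4-fold in a comparison (25%, against 13.4%). The retinaldehyde dehydrogenases of this family make retinoic acid from retinaldehyde: ALDH1A3 was above background in every line at differing levels, and ALDH1A1 in HT-29 alone. ALDH1A1 was at 807 for HT-29, 6.81 for MCF10A and 13.6 for MDA-MB-436, at least 27-fold higher in HT-29 than in either mammary line. ALDH1A3 was at 96.4 for HT-29, 229 for MCF10A and 1192 for MDA-MB-436. MDA-MB-436 was 5.2-fold above MCF10A, and HT-29 was 12.4-fold below MDA-MB-436. ALDH1A2, the third such enzyme, was under background everywhere, at 12.2, 15.8 and 15.4 in HT-29, MCF10A and MDA-MB-436.

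The upstream sequences of ALDH1A1 and ALDH1A3 are shown because the pair encodes enzymes of the same reaction with opposite orders of intensity over HT-29 and MDA-MB-436. They are the 250 bases before the start from RefSeq on GRCh38.p14, at chr9:72953054-72953303 on the minus strand and chr15:100879581-100879830 on the plus strand. Capitals mark the core motif of the aryl hydrocarbon receptor, GCGTG, on either strand.
ALDH1A1: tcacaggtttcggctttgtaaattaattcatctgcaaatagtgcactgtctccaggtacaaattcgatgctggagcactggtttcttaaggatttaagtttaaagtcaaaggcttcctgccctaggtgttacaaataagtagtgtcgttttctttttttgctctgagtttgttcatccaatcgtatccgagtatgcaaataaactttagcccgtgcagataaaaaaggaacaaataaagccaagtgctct
ALDH1A3: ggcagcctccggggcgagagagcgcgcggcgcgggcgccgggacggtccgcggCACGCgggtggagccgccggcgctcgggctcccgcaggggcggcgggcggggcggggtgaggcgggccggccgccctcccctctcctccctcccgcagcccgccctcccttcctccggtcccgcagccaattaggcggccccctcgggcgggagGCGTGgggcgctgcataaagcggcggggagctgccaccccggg
The windows differ in base composition, with 38.4% G and C for ALDH1A1 and 82.4% for ALDH1A3, against a median of 63.2% over the 11522 promoters. ALDH1A3 holds the core motif at 2 places and ALDH1A1 at none, and 40.3% of the promoters hold it at least once.

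ALDH1B1, a mitochondrial ALDH, was at 179 in HT-29 against 773 in MCF10A and 814 in MDA-MB-436, 4.31-fold and 4.54-fold lower. ALDH3A1, an ALDH of cornea and stomach that oxidises lipid aldehydes, was at 89 for MCF10A, 39.4 for HT-29 and 19 for MDA-MB-436, which was at least 2.98-fold below MCF10A. All 3 ALDH3A1 values lay under the highest olfactory receptor value. ALDH7A1, which acts in lysine breakdown, was at 804 in MCF10A, 313 in MDA-MB-436 and 214 in HT-29, 3.75-fold lower in HT-29 and so just short of the threshold. The remaining ALDH genes above background lay closer together: ALDH18A1, of proline synthesis, was at 630.4, 674 and 386 in HT-29, MCF10A and MDA-MB-436, ALDH9A1 at 251, 481 and 493, ALDH3A2, the fatty aldehyde dehydrogenase, at 266, 503 and 268, and ALDH3B1 at 482, 267 and 187. ALDH16A1, ALDH4A1, ALDH5A1 and ALDH6A1 ranged from 19.8 to 156.

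Of 26 measured genes of the retinoid pathway, none of them an ALDH, HT-29 had 3 higher and 2 lower than MCF10A and 3 higher and 3 lower than MDA-MB-436, and MDA-MB-436 had 2 higher and 1 lower than MCF10A. The median log2 differences of this list were 0.40, 0.31 and -0.04, beside 0.11, 0.076 and 0.018 for all genes. In these comparisons 4.34% of all genes were higher and 3.5% lower, 4.21% and 4.68%, and 3.65% and 2.01%. Raising values under background to it took the medians of the list to 0, 0 and 0. HT-29 then had 2 higher and 1 lower than MCF10A and 3 higher and 2 lower than MDA-MB-436. MDA-MB-436 then had 2 higher and 0 lower than MCF10A. The genes before the ALDH step, RDH10 and DHRS3, which interconvert retinol and retinaldehyde, were above background in all lines, at 985, 666 and 375 and at 841, 486 and 351 in HT-29, MCF10A and MDA-MB-436. STRA6, the retinol uptake receptor, was at 308 in MDA-MB-436, 60.6 in HT-29 and 29.4 in MCF10A, at least 10.3-fold above MCF10A. The retinoic acid receptors differed by line: RARB reached 142 in MDA-MB-436 against 9.35 in HT-29 and 6.19 in MCF10A, at least 4.74-fold higher, whereas RARG was at 646 for HT-29, 192 for MCF10A and 66.1 for MDA-MB-436, 9.76-fold higher in HT-29 than in MDA-MB-436. RBP4, the plasma retinol carrier, was at 127 in HT-29 and at 6.09 and 11.3 in MCF10A and MDA-MB-436, at least 4.24-fold higher. The retinoic acid carriers ran in opposite directions, CRABP2 at 283, 68.1 and 52.4 and FABP5 at 51.3, 391 and 132 in HT-29, MCF10A and MDA-MB-436, so that HT-29 was 4.15-fold above and 7.63-fold below MCF10A. Quantile normalization left CRABP2 short of 4-fold against MCF10A and took the median of the list from 0.40 to 0.15. CYP26A1, an enzyme that clears retinoic acid, was at 7.08, 5.13 and 5.67, under background. Its relative CYP26B1 was above background in every line, at 42.3, 42.1 and 74.7 in HT-29, MCF10A and MDA-MB-436. None of these CYP26B1 values was above the highest olfactory receptor value.

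Among the 7 sulfotransferase genes, 4 were past 4-fold in a comparison, against 13.4% of all genes, and each line was highest for at least 1 of these. SULT1E1, the estrogen sulfotransferase, was at 90.6 in MCF10A against 3.88 in HT-29 and 4.16 in MDA-MB-436, and was the only one of the 55 genes past 4-fold above both other lines in MCF10A (0.881% of all genes were). Its measured log2 differences were -4.55 in HT-29 and -4.45 in MDA-MB-436 against MCF10A, but only at least 3.03-fold once counted from the background. SULT1C2 was at 106 in MDA-MB-436, 9.24 in HT-29 and 6.62 in MCF10A, so MDA-MB-436 was higher by at least 3.55-fold. SULT4A1, a sulfotransferase of brain, was at 45.6 in MDA-MB-436, 9.06 in HT-29 and 7.11 in MCF10A, at least 1.52-fold. SULT2B1, which sulfates cholesterol and hydroxysteroids, was at 169 for HT-29, 58.5 for MCF10A and 26 for MDA-MB-436, at least 5.63-fold higher in HT-29 than in MDA-MB-436. SULT1B1, SULT1C4 and SULT2A1 stayed under background, between 3.17 and 6.40. PAPSS2, one of the pair of enzymes that make the sulfate donor, was at 1018 in HT-29, 270 in MDA-MB-436 and 22.2 in MCF10A, at least 34-fold and at least 9.02-fold above MCF10A. Its partner gene PAPSS1 was at 269, 325 and 349 in HT-29, MCF10A and MDA-MB-436.

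Of the 7 GST genes, GSTM3, GSTT1 and GSTO2 were past 4-fold in a comparison (42.9%, against 13.4% of all genes). GSTK1 and GSTZ1 did not match the symbols used and are not in this share. They were at 1931, 1141 and 706 and at 49.5, 32.5 and 31.3 in HT-29, MCF10A and MDA-MB-436, neither past 4-fold. GSTP1, GSTO1 and GSTA4 were above background in all lines. GSTM3, of the mu class, reached 208 in MDA-MB-436 against 8.37 in HT-29 and 4.06 in MCF10A, at least 6.95-fold higher; its neighbour GSTM5 was under background. GSTT1, of the theta class, was at 353 in HT-29, 134 in MDA-MB-436 and 19.2 in MCF10A, at least 11.8-fold and at least 4.47-fold above MCF10A. It was the single enzyme gene past 4-fold below both other lines in MCF10A, against 1.03% of all genes. The omega class pair GSTO1 and GSTO2, which are neighbours, were both lowest in MDA-MB-436. GSTO2 was at 151 for HT-29, 165 for MCF10A and 27.3 for MDA-MB-436, at least 5.53-fold below MCF10A, and GSTO1 was at 229, 262 and 102, 2.57-fold below it. GSTP1, of the pi class, a common form in epithelial tumors, was at 3029.7, 4422 and 2078 in HT-29, MCF10A and MDA-MB-436. GSTA4, which conjugates the lipid aldehyde 4-hydroxynonenal, was at 57.5, 152 and 155 in that order.

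Among other genes of conjugation and related enzymes, 17 of 19 were measured, with 1 higher and 2 lower in HT-29 than in MCF10A, 3 higher and 2 lower than in MDA-MB-436, and 1 lower in MDA-MB-436 than in MCF10A, with median log2 differences of 0.17, 0.40 and -0.24. All genes had medians of 0.11, 0.076 and 0.018 in these comparisons. Their shares were 4.34% higher and 3.5% lower, 4.21% and 4.68%, and 3.65% and 2.01%. With values under background raised to it, the medians of the list were 0, 0 and -0.06. HT-29 then had 0 higher than MCF10A, without HNMT, which was at 100.2 against 9.97, at least 3.35-fold. The microsomal glutathione transferase gene MGST3 was at 340 in HT-29 against 2268 in MCF10A and 1670 in MDA-MB-436, 6.68-fold and 4.92-fold lower. The prostaglandin E synthase gene PTGES was at 78 for HT-29, 1912 for MCF10A and 537 for MDA-MB-436, 24.5-fold and 6.89-fold lower in HT-29. NNMT, which methylates nicotinamide, was at 1462 for HT-29, 1606 for MCF10A and 147 for MDA-MB-436, 10.9-fold below MCF10A in MDA-MB-436. TST, the mitochondrial enzyme rhodanese, was at 1679, 493 and 281, 5.98-fold higher in HT-29 than in MDA-MB-436. Apart from PAPSS2, no gene among the 14 measured for cofactor supply was past 4-fold. GCLC and GCLM, the subunits of the enzyme that starts glutathione synthesis, were at 609, 338 and 170 and at 179, 122 and 194 in HT-29, MCF10A and MDA-MB-436.

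AKR1C3, which reduces steroids and prostaglandins, was the only AKR1 gene past 4-fold. It was at 288 for HT-29, 299 for MCF10A and 45.4 for MDA-MB-436, so that MDA-MB-436 was 6.59-fold below MCF10A and 6.34-fold below HT-29 while HT-29 and MCF10A were within 1.04-fold. Near-identical AKR1C genes exist, and a share of their signal in this cluster was not tested. AKR1E2 was above background only in HT-29, at 36.3 against 23.7 in MCF10A and 9.84 in MDA-MB-436. AKR1D1, the bile acid and steroid 5-beta reductase, was under background. The 3 UGT genes of the set were under background in every line, at 4.29 to 12.2, so the set shows nothing for glucuronidation. UGT8, whose symbol did not match the set, was counted with the other conjugation genes. It was at 481, 366 and 105 in HT-29, MCF10A and MDA-MB-436, 4.59-fold higher in HT-29 than in MDA-MB-436. UGDH, which makes the sugar donor of glucuronidation, was at 1594 for HT-29, 454 for MCF10A and 1113 for MDA-MB-436.

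**Figure D3:**
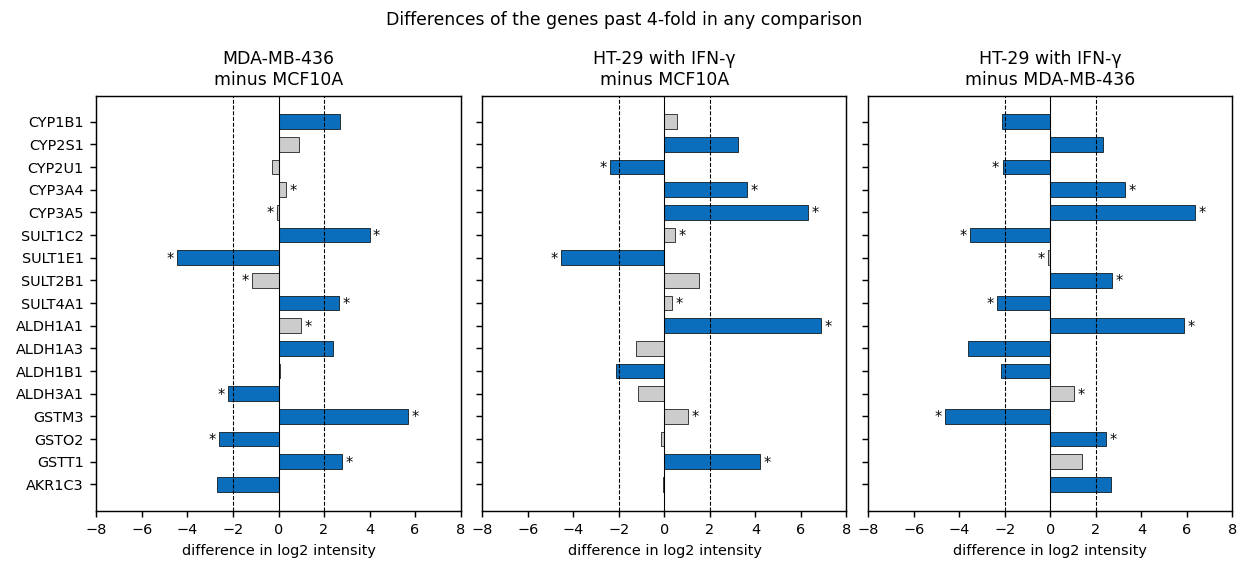
Difference in log2 intensity for the 17 genes past 4-fold in at least 1 comparison, 1 panel per comparison; blue bars are past 4-fold, grey bars are not, dashed lines mark a difference of 2, and an asterisk marks a bar with at least 1 array under background. Long bars with an asterisk, such as GSTM3 at 5.68 in the left panel, rest on a dim array and are lower when counted from the background (2.80 for GSTM3).

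By line, 4 genes were past 4-fold above both mammary lines in HT-29 (ALDH1A1, CYP2S1, CYP3A4 and CYP3A5), 7.27% of the set against 2.46% of all genes. MDA-MB-436 had 5 such genes (ALDH1A3, CYP1B1, GSTM3, SULT1C2 and SULT4A1), 9.09% against 2.16%. In the other direction, ALDH1B1 and CYP2U1 were past 4-fold below both others in HT-29, and AKR1C3 and GSTO2 in MDA-MB-436, 3.64% of the set in each case against 1.7% and 0.819% of all genes. HT-29 had the highest value for 22 of the 55 genes, MCF10A for 16 and MDA-MB-436 for 17, that is 40%, 29.1% and 30.9%, near the 40.3%, 29% and 30.7% of all genes. Among the 37 enzyme genes above background on at least 1 array the numbers were 12, 13 and 12, that is 32.4%, 35.1% and 32.4%.

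No pair of enzyme genes side by side in the genome had both genes past 4-fold. In the RefSeq gene order, restricted to genes measured here and genes of these families, 9 pairs of members were direct neighbours. In 6 of these pairs 1 gene was past 4-fold in a comparison and its neighbour in none: GSTM3 beside GSTM5, GSTO2 beside GSTO1, CYP2S1 beside CYP2F1, SULT1C2 beside SULT1C4, SULT1E1 beside SULT1B1 and CYP3A4 beside CYP3A43. In the other 3 pairs neither gene was past 4-fold. These counts do not show that neighbours differ in pattern. GSTM5, SULT1C4, SULT1B1 and CYP3A43 were under background on every array. CYP2F1 had the same order of lines as CYP2S1, and GSTO1 the same as GSTO2. The share of such pairs over all genes was not computed.

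Promoter windows were found for 48 of the 55 genes and for 13 of the 17 past 4-fold; ALDH3A1, CYP1B1, GSTT1 and SULT4A1 had none. The core motif GCGTG was in 11 of the 48 windows (22.9%, against 40.3% of all promoters) and in 3 of the 13, those of ALDH1A3, GSTM3 and SULT2B1. The motif of the antioxidant factor NRF2, TGACNNNGC, was in 7 (14.6% against 11.6%), of the 13 only that of SULT1C2. The STAT motif TTCNNNGAA was in 3 (6.25% against 6.04%) and in 0 of the 13. TATAAA was in 11 (22.9% against 8.26%), including AKR1C3, CYP3A4 and SULT1E1. The members' windows had a median of 58.6% G and C against 63.2%, and a match in 250 bases is a description of the letters only.

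Regulators of enzyme genes were measured for 25 of 34 listed genes; NR1I2, NFE2L2 and HNF4A were among those not analysed here. HT-29 had 6 higher and 1 lower than MCF10A, and 5 higher and 2 lower than MDA-MB-436, with median log2 differences of 1.45 and 1.13 beside 0.11 and 0.076 for all genes. Of all genes, 4.34% were higher and 3.5% lower than in MCF10A, and 4.21% and 4.68% than in MDA-MB-436. With values under background raised to it, HT-29 had 5 higher and 1 lower than MCF10A, with a median of 1.08. Against MDA-MB-436 it then had 3 higher and 1 lower, with a median of 0.72. MDA-MB-436 had 2 higher and 0 lower than MCF10A, with a median of 0.32; raising values under background to it left 0 higher and a median of 0.07, and quantile normalization gave a median of 0.10. HNF4G, a nuclear receptor of gut and liver, was at 445 for HT-29, 8.69 for MCF10A and 7.58 for MDA-MB-436, at least 14.9-fold higher in HT-29. FOXA1, a pioneer factor of endoderm and luminal cells, was at 1031, 165 and 100.3, which is 6.24-fold and 10.3-fold higher. NR5A2, a receptor that acts on bile acid and steroid genes, was at 124, 7.14 and 51.2, at least 4.14-fold above MCF10A. BACH1, a repressor at NRF2 sites, was at 1266, 223 and 307, 5.67-fold and 4.12-fold higher; under quantile normalization it was no longer past 4-fold against MDA-MB-436, which left 4 higher.

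The glucocorticoid receptor gene NR3C1 was the gene of this list past 4-fold below both others in HT-29, at 15.5 against 481 in MCF10A, at least 16.1-fold, and against 504 in MDA-MB-436, a bound of 16.9-fold. Hydrocortisone was in the MCF10A medium alone, and its part in any difference was not tested. RXRG reached 83.2 in MDA-MB-436 against 12.6 in HT-29 and 5.43 in MCF10A, at least 2.78-fold. KEAP1, which holds NRF2 inactive, was at 344, 564 and 299 in HT-29, MCF10A and MDA-MB-436. Of 20 measured NRF2 targets, HT-29 had 2 higher (TXNRD1 and GPX2) and 2 lower (ABCC2 and PIR) than MCF10A, so the list had no common direction, with a median of 0.16. Among all genes 4.34% were higher and 3.5% lower in this comparison, with a median of 0.11. TXNRD1, thioredoxin reductase, was at 1335, 264 and 634 in HT-29, MCF10A and MDA-MB-436. GPX2 was at 3133, 15.2 and 16.3 in that order, at least 105-fold higher in HT-29. HMOX1, heme oxygenase, was at 223 in MDA-MB-436 against 25.6 and 23.3 in HT-29 and MCF10A, at least 7.44-fold higher.

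**Figure D4:**
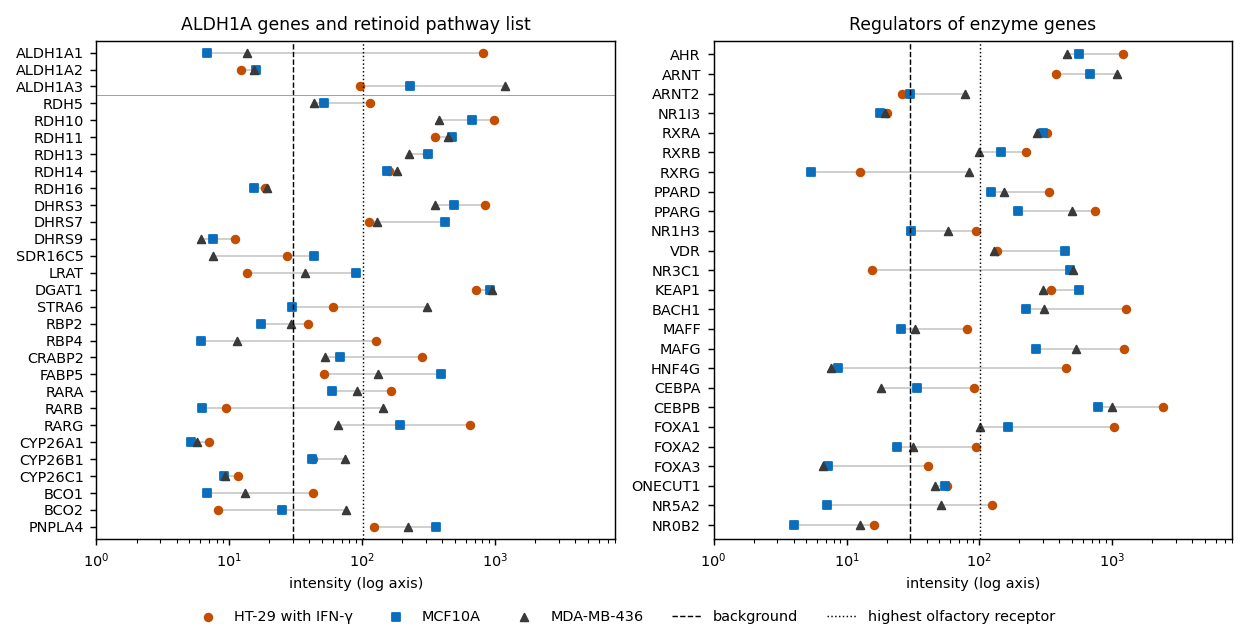
Intensity (log axis) on the 3 arrays of the ALDH1A genes with 26 genes of the retinoid pathway (left) and of 25 regulators (right); circles are HT-29 with IFN-γ, squares MCF10A, triangles MDA-MB-436, the dashed line is the background and the dotted line the highest olfactory receptor value. HNF4G and ALDH1A1 have their HT-29 point far right of both mammary points, at 445 and 807, and NR3C1 has its HT-29 point far left, at 15.5.

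The electron donor of the microsomal P450 enzymes, POR, was at 678, 553 and 535 in HT-29, MCF10A and MDA-MB-436, and none of the 9 measured partner genes was past 4-fold except HMOX1. Other oxidising enzymes, 20 of 32 measured, had 2 lower and 0 higher in HT-29 and likewise in MDA-MB-436 against MCF10A, with median log2 differences of -0.26 and -0.41. Among all genes 3.5% were lower and 4.34% higher in HT-29, and 2.01% lower and 3.65% higher in MDA-MB-436, with medians of 0.11 and 0.018. Under quantile normalization HT-29 had 1 lower, AOX1 without MAOA, and MDA-MB-436 had 3, with CBR4 added. With values under background raised to it, HT-29 had 1 lower, this time MAOA without AOX1. MAOA, which oxidises serotonin and noradrenaline, was at 811 in MCF10A, 194 in HT-29 and 32.9 in MDA-MB-436, 4.17-fold and 24.7-fold lower. XDH, xanthine dehydrogenase, was at 147 in MCF10A but 20.2 in MDA-MB-436, a difference of at least 4.92-fold. AOX1, an aldehyde oxidase, was at 62.8 in MCF10A and 12.9 in HT-29, at least 2.1-fold lower. EPHX1, the microsomal epoxide hydrolase, was at 413, 401 and 349 in HT-29, MCF10A and MDA-MB-436.

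Transporters, among them export pumps for conjugates and SLCO carriers, also differed. Of 14 measured transporters, HT-29 had 2 higher and 3 lower than MCF10A and 1 higher and 2 lower than MDA-MB-436, and MDA-MB-436 had 1 higher and 0 lower than MCF10A. Of all genes, 4.34% were higher and 3.5% lower, 4.21% and 4.68%, and 3.65% and 2.01% in these comparisons. Their median log2 differences were 0.26, -0.06 (0.03 with median centring) and 0.28 for the transporters. With values under background raised to it, the medians were 0, 0 and 0.003. HT-29 then had 2 lower than MCF10A, and MDA-MB-436 had 0 higher. SLCO3A1 was at 48.2, 340 and 422 in HT-29, MCF10A and MDA-MB-436, 7.06-fold and 8.76-fold lower in HT-29. ABCC3, a pump for glucuronides and bile salts, was at 1018 for HT-29, 106 for MCF10A and 121 for MDA-MB-436, 9.6-fold and 8.43-fold higher. ABCC2, which exports glutathione and glucuronide conjugates across the apical membrane, was at 10.6 in HT-29 and at 142 in each mammary line, at least 4.74-fold lower. ABCG2, a pump for sulfated steroids and drugs, was at 133 in HT-29, 55.8 in MDA-MB-436 and 10.8 in MCF10A, at least 4.44-fold above MCF10A in HT-29. ABCB1, the multidrug efflux pump, was under background in every line, at 9.50, 5.97 and 12.8 in HT-29, MCF10A and MDA-MB-436. Of 5 measured targets of the aryl hydrocarbon receptor outside the enzyme families, 2 were higher in HT-29 than in MCF10A (LAT2 and EREG). In HT-29 1 was higher than in MDA-MB-436 (LAT2). PTGS2, at 162 in MDA-MB-436 and 30.5 in MCF10A, was 5.32-fold higher in MDA-MB-436. Among all genes 4.34%, 4.21% and 3.65% were higher in these comparisons.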

How the data were processed

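Exon arrays were hybridised with biotin-labelled material made from total RNA, per the labels' protocols. The deposited table holds a linear intensity for each of 18708 transcript clusters and each array; the summary, background correction and normalization made by the authors are not given in the sources used here, and the submitters' processing notes name the build hg19. Gene names came from the platform annotation, updated by gene identifier to RefSeq (GRCh38.p14; 14705 of 14733 clusters with a single symbol matched; 2875 had several symbols and 1100 none). Intensities were log2 transformed for differences, with no further normalization. Named were every member past 4-fold, the brightest members of each family, and some but not all of the list members past 4-fold. No test was possible with 1 array per line, whose number limits the precision; counting was checked on simulated data. The members and lists were chosen with earlier results of these data known. Alternatives were quantile normalization, median centring, other backgrounds and folds, and the median over clusters; the STAT and TATA motifs were added after the data were seen. The tools were Python 3.11.15 with pandas 2.3.3, numpy 2.4.6 and, for figures, matplotlib 3.10.9.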

Additional observations from a re-analysis of the deposited data

How the results depend on the processing

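None of the differences past 4-fold among the enzyme genes changed direction under quantile normalization or median centring, which shifts all genes of a comparison alike. The floor, which raises values under background to it, cannot reverse a direction. The median over clusters could change none of these values, because only CYP2R1 had several clusters and it was never past 4-fold. Of the 128 recomputed values, 114 moved by less than the SD of olfactory receptor genes between arrays. That number includes the values that could not change. The 14 that moved further did so with the floor. The counts past 4-fold kept the same genes under quantile normalization, which added AKR1E2 for HT-29 minus MDA-MB-436, and under centring. With the floor the count for MDA-MB-436 minus MCF10A was 6, without ALDH3A1, SULT1C2, SULT1E1 and SULT4A1. For the genes past 4-fold above both other lines, the alternatives were added after the data were seen. With the floor their number became 0 for MCF10A, without SULT1E1, 3 for HT-29, without CYP3A4, and 3 for MDA-MB-436. A fold of 2 gave 16 genes for MDA-MB-436 minus MCF10A and 16 for HT-29 minus MCF10A, against 17.5% and 20.3% of all genes, and 3 genes above both others for MCF10A. A fold of 8 gave 3 genes for MDA-MB-436 minus MCF10A, against 2.59% of all genes, 6 for HT-29 minus MDA-MB-436, against 4.32%, and 2 above both others for MDA-MB-436. With the 99th percentile of olfactory receptor genes, 60.6, as background, CYP3A4 and SULT4A1 were no longer counted. Of the genes short of 4-fold, quantile normalization turned the sign of 6 of 45 for MDA-MB-436 minus MCF10A and 5 of 47 for HT-29 minus MCF10A. That normalization moved the median of all genes for HT-29 minus MCF10A from 0.11 to -0.01. No paired analysis was possible because each line had 1 array and the result comes from no test.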
